A study of Mus musculus with 97 samples.

Results

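The 6 genes described here encode the transcriptional repressors of the mammalian circadian clock: the period genes Per1, Per2 and Per3, the cryptochrome genes Cry1 and Cry2, and Ciart. They were taken by name from a table of 20457 genes in mouse whole colon, and all 6 were among the 17083 genes tested. In each cell the clock is a feedback loop of transcription. The activator made of ARNTL (BMAL1) with CLOCK or NPAS2 binds E-boxes and drives the Per, Cry and Ciart genes, and the PER and CRY proteins return to the nucleus as a complex and switch that activator off. CIART, also called CHRONO, binds ARNTL and represses it as well. In the gut the loop runs in epithelium, muscle and nerve and sets daily rhythms of absorption, motility and cell division.

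Wild-type C57BL6/J mice, 8 to 12 weeks old and kept under a 12-hour light/dark cycle, received ampicillin, metronidazole, neomycin, vancomycin, a mix of all 4 (Mix), or phosphate buffered saline (PBS) as control. Routes were gavage (PO), intraperitoneal (IP) and intravenous (IV), which makes 18 groups, named here as Ampicillin-PO and so on. A dose was 2.5 mg of antibiotic in 100 µl of PBS, or 100 µl of PBS alone. For 3 days 2 doses were given daily, a last one followed on day 4, and 4 hours after it the colon was taken. How much of each drug the mix held, and the hour of the day at collection, were not given in the sources used here, so for every difference below treatment and hour of collection cannot be told apart. Of the 97 libraries, 4 each belonged to Vancomycin-IP, PBS-IP, Metronidazole-IV and Metronidazole-IP, 5 each to Vancomycin-IV, PBS-IV and Neomycin-IV, and 6 to every other group. Since no label states whether replicates came from different animals, p-values reflect only the variation among these libraries, some of which may be technical. Values are TPM, transcript abundances scaled by transcript length and to one total, so levels of different genes can be compared but the depth of each library is unknown.

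Colon markers were present: 10 of 10 smooth muscle and 4 of 4 epithelial markers were found and none was at 0 throughout a group, while the 2 of 4 listed markers of other tissues that the table holds summed to at most 4.22 TPM. Averaged as log2(TPM + 1), the 10 muscle markers gave a score of 10.1 in PBS, 10.7 after ampicillin and 11.3 after vancomycin. The summed smooth muscle markers ran from 6395 to 49930 TPM over PBS libraries and from 3615 to 70654 TPM over vancomycin libraries. With routes averaged, 10 of 10 muscle markers and 4 of 5 fibroblast markers were higher after vancomycin than after PBS, where 18.6% of tested genes were. Lower after vancomycin were 2 of 6 goblet cell and 1 of 4 epithelial markers (7.40% of genes), after ampicillin 1 goblet cell marker (2.75%), and after the mix 1 goblet cell and 1 of 6 surface colonocyte markers (3.27%). The share of TPM from the mitochondrial genome ran from 3.52% to 27.5% over all libraries. Its median was 10.9% in PBS, 9.14% after ampicillin, 7.65% after metronidazole, 6.02% after neomycin, 9.19% after vancomycin and 8.49% after the mix, and its part in the differences from PBS was not tested. The columns of 12 libraries (PBS-IP 2, PBS-IV 2, Vancomycin-PO 3, Vancomycin-IP 3 and Vancomycin-IV 2) stand apart at the end of the table. Many of the results that rest on them are given with and without them. Pairwise differences between antibiotic treatments and the values of single clock genes other than the 6 are given only with them. In bulk tissue, fewer cells of a type and less RNA per cell cannot be told apart.

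With routes averaged, Ciart and Per3 had lower levels after ampicillin and vancomycin and Cry1 higher ones. The start regions of these 3 genes are therefore shown first. By single route Cry1 passed the threshold in 0 of 15 comparisons, and its route-averaged differences passed it only under some settings, as given below. The sequences are from RefSeq on build GRCm38.p6, which had entries for 5 of the 6 genes, and each runs from 250 bases before to 50 bases after the start of transcription, 5′ to 3′ on the strand of the gene. Capitals mark matches, on either strand, to the E-box CACGTG, to its variant CACGTT, or to the D-box TTATGTAA or TTACGTAA, which the output factors DBP, TEF and HLF and their antagonist NFIL3 bind. The cyclic AMP element TGACGTCA and the ROR and REV-ERB core TAGGTCA were also searched for.
Ciart, chr3:95882179-95882478, minus strand: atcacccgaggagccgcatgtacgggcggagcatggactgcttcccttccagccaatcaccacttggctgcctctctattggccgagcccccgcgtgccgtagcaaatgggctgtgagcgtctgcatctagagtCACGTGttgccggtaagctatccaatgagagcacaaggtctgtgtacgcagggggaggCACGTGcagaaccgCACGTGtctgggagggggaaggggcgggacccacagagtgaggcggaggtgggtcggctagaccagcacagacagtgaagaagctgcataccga
Per3, chr4:151044616-151044915, minus strand: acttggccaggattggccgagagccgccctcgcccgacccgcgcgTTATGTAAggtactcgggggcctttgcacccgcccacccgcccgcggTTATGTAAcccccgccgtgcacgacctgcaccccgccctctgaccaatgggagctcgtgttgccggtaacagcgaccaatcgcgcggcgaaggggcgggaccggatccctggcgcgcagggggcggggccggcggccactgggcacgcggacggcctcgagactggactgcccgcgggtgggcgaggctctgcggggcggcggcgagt
Cry1, chr10:85185005-85185304, minus strand: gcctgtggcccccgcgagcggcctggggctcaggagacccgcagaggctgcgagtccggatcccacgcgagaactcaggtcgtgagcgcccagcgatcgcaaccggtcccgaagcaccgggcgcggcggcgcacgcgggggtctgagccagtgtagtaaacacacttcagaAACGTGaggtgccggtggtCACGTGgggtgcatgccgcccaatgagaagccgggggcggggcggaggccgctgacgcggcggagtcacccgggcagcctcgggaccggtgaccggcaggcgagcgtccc
The Ciart window held 3 E-boxes, which 0.0883% of the 32851 windows in the table did. The Per3 window held no E-box and 2 D-boxes, and 0.0244% of windows held at least 2. The Cry1 window held 1 E-box and 1 CACGTT variant. Of the members not shown, the upstream of 2 listed Per1 starts held 1 E-box and Cry2 held 1 CACGTT variant. At least 1 E-box stood in 7.15% of all windows, at least 1 variant in 4.68% and at least 1 D-box in 1.06%, and the other motifs matched in no member. A match is a run of letters in a window and says nothing of whether a factor binds there.

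Across the 97 libraries all 6 genes were read at 1 TPM or more in every one. In the PBS libraries Per3 and Per2 were the most abundant (means of the 3 route groups 73.8 and 64.4 TPM), Per1 stood at 43.6, Cry2 at 26.5, Ciart at 23.2 and Cry1 at 16.9 TPM. The genes differed in how far libraries of one group spread. The pooled within-group SD of log2(TPM + 1) was 1.11 for Per2 and 1.14 for Cry1, larger than in 95.9% and 96.5% of tested genes, against 0.49 for Per1 and 0.49 for Per3, 0.67 for Ciart and 0.36 for Cry2, where the median gene had 0.44. Per2 ran from 13.96 to 225.4 TPM within PBS-PO alone, so only large differences in Per2 and Cry1 could pass the test. When the 18 groups were ordered by mean level, neighbours in the order differed by less than the larger SD of the pair at every step for 5 genes, and at 16 of 17 steps for Cry2.

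**Figure D1:**
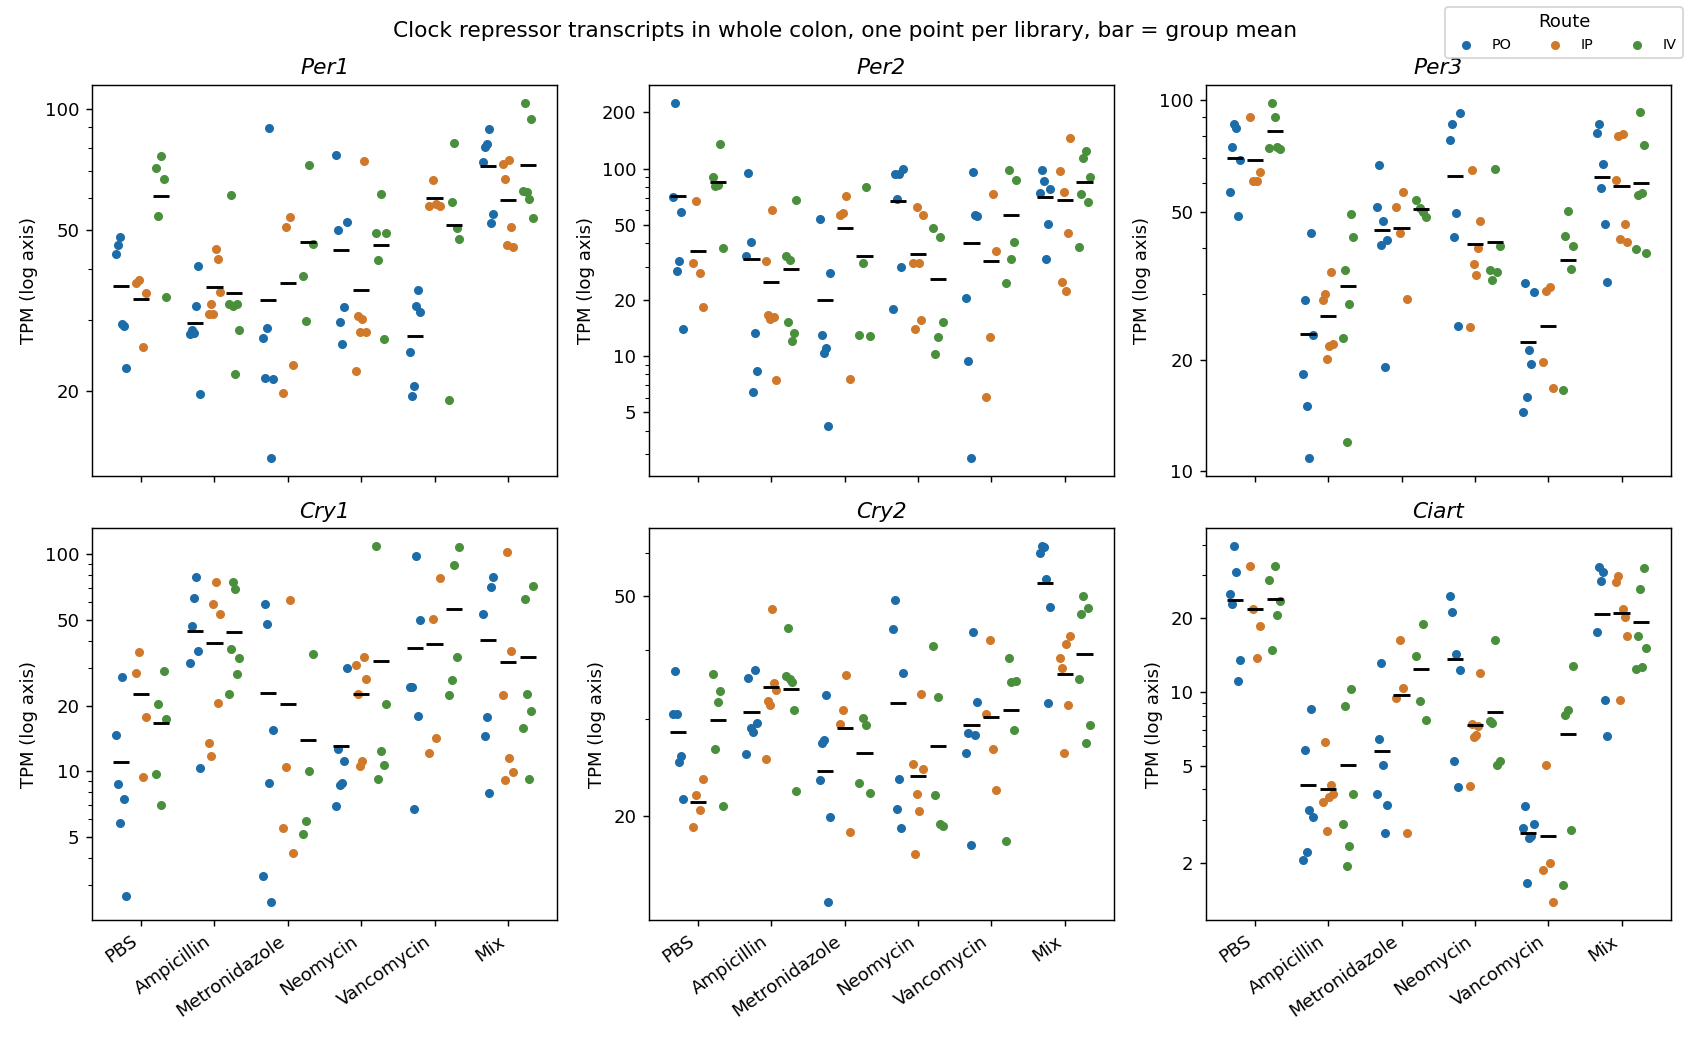
TPM of each clock repressor (log axis) in each of the 97 libraries, by treatment and, in colour, by route. Bars are group means. Ciart lay between 11.1 and 39.4 TPM in PBS and between 1.95 and 10.3 TPM after ampicillin, while Per2 and Cry1 spread widely within groups.

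Against PBS of the same route, 2 of the repressors, Ciart and Per3, were lower after ampicillin and vancomycin. Over the 15 antibiotic groups and 6 genes, 12 of 90 differences passed an adjusted p of 0.05 (13.3%), where 1.45% of all gene by comparison pairs did. Ciart was lower in 6 comparisons, Per3 in 5, Cry2 was higher in 1, and Per1, Per2 and Cry1 were called by limma in 0, with an unadjusted p under 0.05 in 4, 4 and 5 of the 15. Genes called lower made up 0.0468%, 0.0820% and 0.0293% of all genes for ampicillin PO, IP and IV, and 0.146%, 3.08% and 0.0293% for vancomycin, and 0.211% were called higher in Mix-PO. These comparisons share PBS libraries, so results for antibiotics given by one route are not independent of each other. Shares of all genes were not computed for the other settings that follow. The 12 calls became 24 with libraries weighted by their quality, 7 when only the compared groups were fitted (Per3 in Ampicillin-PO and Ampicillin-IV, Ciart in Ampicillin-PO, Ampicillin-IV and Vancomycin-IV and Cry2 in Mix-PO were lost, with adjusted p = 0.127, 0.781, 0.0833, 0.511, 0.436 and 0.0861, and Per1 in Vancomycin-IP gained), and 5 without the 12 appended libraries (Ciart in Ampicillin-PO, Ampicillin-IP and Vancomycin-PO, Per3 in Ampicillin-PO, Cry2 in Mix-PO).

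**Figure D2:**
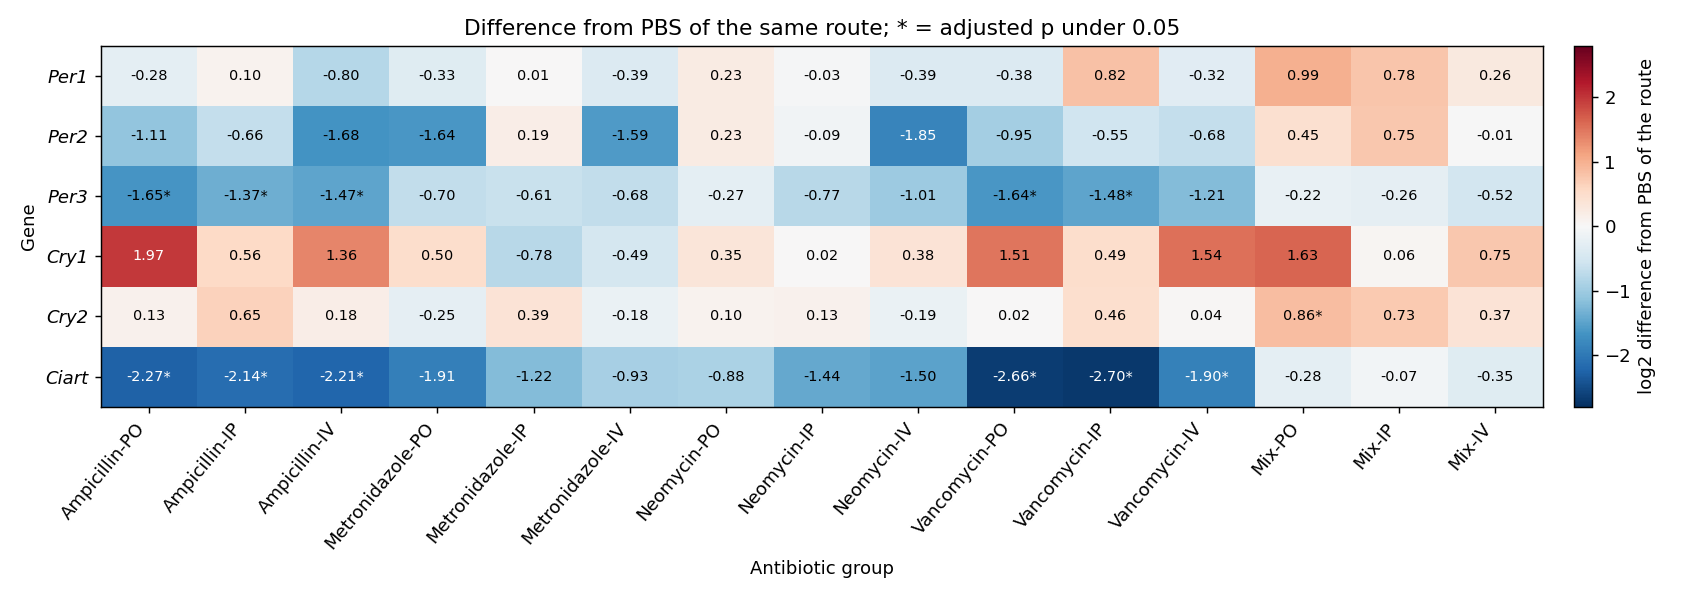
Difference in log2(TPM + 1) from PBS of the same route for 6 genes (rows) in 15 antibiotic groups (columns). Blue is lower and red higher than PBS, and an asterisk marks a limma adjusted p under 0.05. The asterisks lie in the Ciart and Per3 rows under ampicillin and vancomycin, with 1 for Cry2 in Mix-PO.

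Averaging the 3 routes gave each antibiotic 14 to 18 libraries against 15 of PBS and made smaller differences testable. Of 30 such member tests 12 were called, 40%, where 8.92% of all pairs were. The counts by antibiotic were 4 of 6 for ampicillin (7.88% of all tested genes), 1 of 6 for metronidazole (0.398%), 2 of 6 for neomycin (2.34%), 3 of 6 for vancomycin (26.0%) and 2 of 6 for the mix (7.96%). With all 5 antibiotics averaged against PBS, 2 of 6 were called, Ciart at -1.50 (SE 0.19, limma adjusted p = 1.16e-07) and Per3 at -0.92 (SE 0.14, limma adjusted p = 7.40e-06), where 4.89% of genes were.

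**Figure D3:**
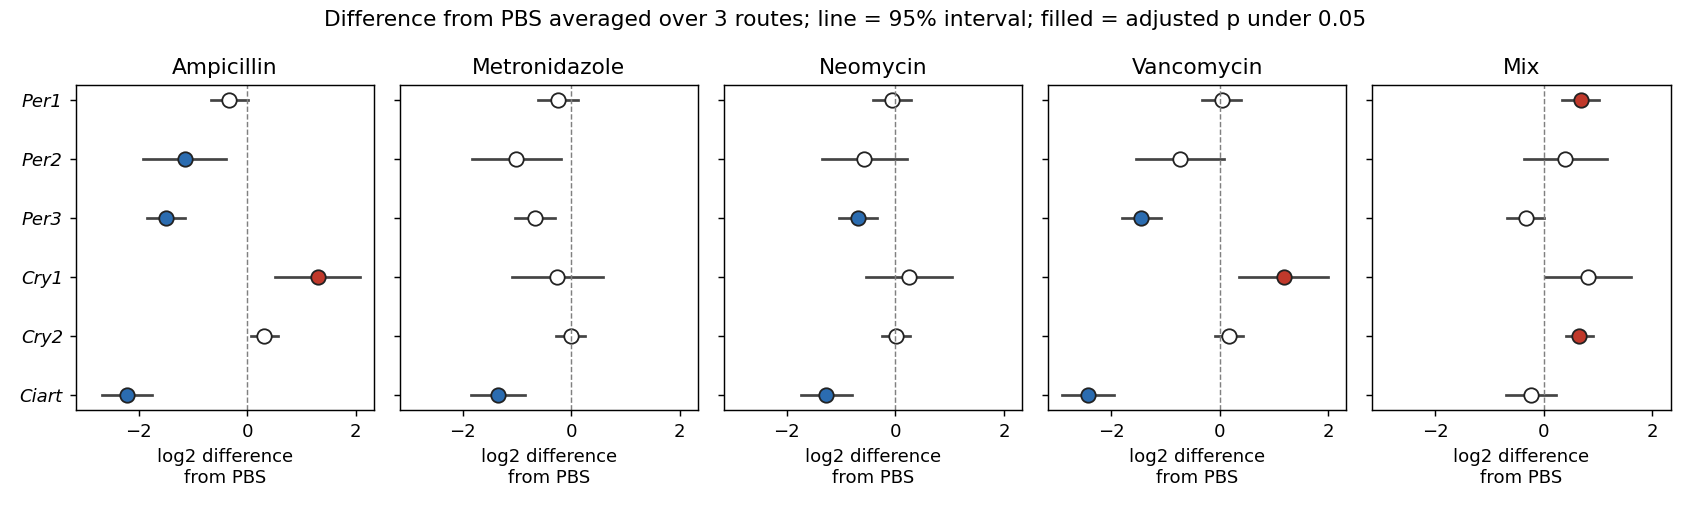
Difference from PBS in log2(TPM + 1), averaged over PO, IP and IV, for each gene and antibiotic. Lines are 95% intervals and filled points have a limma adjusted p under 0.05, blue for lower and red for higher. Ciart stood at -2.21 after ampicillin and -2.42 after vancomycin, and at -0.23 after the mix.

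Per3, the period gene with the weakest part in keeping the rhythm itself, was lower after ampicillin (27.1 TPM) and vancomycin (28.0 TPM) than in PBS (73.8 TPM, means of the 3 route groups). In PBS-PO its lowest, median and highest library read 48.7, 72.1 and 86.2 TPM, in PBS-IP the 4 libraries read 90.01, 60.7, 60.7 and 64.1 TPM, and in PBS-IV the 5 read 74.5, 98.6, 90.4, 75.0 and 74.2 TPM. After ampicillin the lowest, median and highest were 10.8, 20.8 and 43.9 TPM PO, 20.0, 25.5 and 34.5 TPM IP, and 12.0, 31.5 and 49.3 TPM IV. No ampicillin library reached the lowest PBS library of its route, which held for 0.0820%, 0.931% and 0.152% of tested genes in the 3 comparisons. Differences from PBS on the log2 scale were -1.65 (SE 0.28, limma adjusted p = 0.000637) PO, -1.37 (SE 0.32, adjusted p = 0.0176) IP and -1.47 (SE 0.30, adjusted p = 0.00935) IV. Leaving out PBS-IP 1 or 4, or Ampicillin-IP 3 or 4, ended the IP call (highest adjusted p 0.11), and leaving out PBS-IV 2, or Ampicillin-IV 1 or 3, ended the IV call (highest 0.124). Without the 12 appended libraries both calls were lost too (adjusted p = 0.112 and 0.108), with differences of -1.49 and -1.47.

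After vancomycin Per3 read as follows. The lowest, median and highest Vancomycin-PO library read 14.4, 20.4 and 32.2 TPM, the 4 Vancomycin-IP libraries 19.6, 30.6, 31.5 and 16.7 TPM, and the 5 Vancomycin-IV libraries 16.6, 43.1, 50.2, 35.1 and 40.5 TPM. All lay below every PBS library of their route, as did 0.293%, 7.72% and 0.369% of tested genes. The differences were -1.64 (SE 0.28, limma adjusted p = 0.00108) PO, -1.48 (SE 0.35, adjusted p = 0.00643) IP and -1.21 (SE 0.31, adjusted p = 0.0567) IV, the last not called, though it was without PBS-IV replicate 4 (adjusted p = 0.0354). Without the 12 appended libraries neither the PO nor the IP call held (adjusted p = 0.127 and 0.285), with differences of -1.42 and -1.86. Route-averaged, Per3 differed from PBS by -1.50 (SE 0.17, limma adjusted p = 1.01e-09) after ampicillin and by -1.44 (SE 0.18, adjusted p = 5.27e-08) after vancomycin. Without the appended libraries these were -1.54 and -1.42 (adjusted p = 3.17e-07 and 0.00467), and with smooth muscle and distal colon scores as covariates -1.47 and -1.40 (adjusted p = 3.01e-09 and 6.88e-07).

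Per3 differed less under the other treatments. The 4 Metronidazole-IP libraries read 51.5, 43.9, 56.7 and 29.1 TPM and the 4 Metronidazole-IV libraries 53.7, 51.3, 49.9 and 48.4 TPM, all below their PBS libraries, as 0.831% and 0.199% of genes were. All 5 Neomycin-IV libraries, at 34.9, 32.8, 65.2, 34.4 and 40.5 TPM, also lay below theirs, as 0.591% of genes did. Neomycin-PO, in contrast, ran from 24.6 to 92.4 TPM across the PBS range. Route-averaged, Per3 was lower after neomycin (-0.69, SE 0.18, limma adjusted p = 0.0133), and stood at -0.73 without the appended libraries (adjusted p = 0.0455). It stood at -0.66 (SE 0.19, adjusted p = 0.0981) after metronidazole and at -0.33 (95% interval -0.68 to 0.01, adjusted p = 0.242) after the mix, neither of them called. Of the 14 metronidazole libraries 7, of the 17 neomycin libraries 11 and of the 18 mix libraries 7 lay below all PBS libraries.

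Per1 and Per2, the period genes that can be induced acutely by light, hormones and feeding, behaved differently. Per1 was higher after the mix, at 68.0 TPM against 43.6 in PBS as means of the 3 route groups, a difference of 0.68 (SE 0.17, limma adjusted p = 0.00798). Its lowest, median and highest library read 52.1, 77.1 and 88.8 TPM in Mix-PO against 22.8, 36.5 and 48.1 TPM in PBS-PO, and 45.5, 59.0 and 74.6 TPM in Mix-IP against 37.0, 37.7, 25.6 and 34.9 TPM in the 4 PBS-IP libraries. In both comparisons every mix library lay above every PBS library, as 0.714% and 1.33% of genes did. In Mix-IV it ran from 53.7 to 103.4 TPM and overlapped with PBS-IV, whose libraries read 71.3, 54.3, 76.5, 67.1 and 34.2 TPM. No single mix group was called against its PBS group (limma adjusted p = 0.109 PO, 0.224 IP and 0.907 IV), and the route-averaged call was lost without the 12 appended libraries (0.58, adjusted p = 0.063). Over libraries of the same group Per1 correlated with the goblet score at r = -0.43 and with the distal colon score at r = -0.28. After the mix these scores averaged 9.16 and 2.42, against 10.07 and 3.27 in PBS. With the muscle and distal scores as covariates the Per1 difference was 0.57 (adjusted p = 0.0177), and the part of the goblet score was not tested. After the 4 single antibiotics Per1 differed from PBS by -0.33 to 0.04 route-averaged, none called. In Vancomycin-IP all 4 libraries (57.5, 66.7, 57.9 and 57.5 TPM) lay above the PBS-IP libraries, as 22.9% of genes did there, with a difference of 0.82 (limma adjusted p = 0.0769).

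Per2 was lower after ampicillin when routes were averaged, at 29.0 TPM against 64.4 TPM in PBS, a difference of -1.15 (SE 0.38, limma adjusted p = 0.0476). Its median library read 16.4 TPM over the 18 ampicillin libraries (range 6.45 to 94.6) and 58.6 TPM over the 15 PBS libraries (range 13.96 to 225.4), and 6 of 18 lay below every PBS library. Leaving out any one of 21 of the 33 libraries ended it (adjusted p up to 0.101). These were Ampicillin-PO replicates 4, 5 and 6, Ampicillin-IP replicates 2, 3, 5 and 6, Ampicillin-IV replicates 2 to 5, PBS-PO replicates 1, 2 and 5, PBS-IP replicates 1, 2 and 3 and PBS-IV replicates 1 to 4. A pseudocount of 0.1, no filter on low values, or leaving out the appended libraries also ended it (adjusted p = 0.051, 0.0531 and 0.0515), with differences of -1.19, -1.15 and -1.43. The differences after metronidazole (-1.01), neomycin (-0.57), vancomycin (-0.73) and the mix (0.40) were not called, with 95% intervals of -1.83 to -0.19, -1.35 to 0.21, -1.53 to 0.08 and -0.37 to 1.16. Without the appended libraries the vancomycin difference was -1.89 and called (adjusted p = 0.0477). Within the appended libraries Vancomycin-IP differed from PBS-IP in Per2 by 0.51 and within the others by -2.74, and for IV by -0.17 and -1.01, with 1 to 3 libraries an arm and no test.

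Cry1, the cryptochrome whose protein lengthens the period and holds repression late in the cycle, was higher after ampicillin and vancomycin with routes averaged. Ampicillin libraries read 10.4 to 78.7 TPM with a median of 36.0, and vancomycin libraries 6.73 to 107.6 TPM with a median of 26.3, against 2.66 to 35.6 TPM with a median of 14.6 in PBS. Of the 18 ampicillin libraries 10 lay above every PBS library, and so did 6 of 15 vancomycin libraries. The differences were 1.30 (SE 0.40, limma adjusted p = 0.0278) and 1.18 (SE 0.42, adjusted p = 0.030). With the muscle and distal scores as covariates they were 1.06 and 0.76 (adjusted p = 0.056 and 0.318), and without the appended libraries 1.01 and 0.56 (adjusted p = 0.247 and 0.533). Within the appended libraries Vancomycin-IP differed from PBS-IP by 1.50 in log2(TPM + 1), with 3 and 2 libraries, and within the others by -1.32, with 1 and 2. For IV these differences were 1.06 and 1.87, and none of them was tested. The ampicillin call was also lost without Ampicillin-IP replicate 4, PBS-IP replicate 3, PBS-IV replicate 3 or PBS-PO replicate 6 (highest adjusted p 0.055). The vancomycin call was lost without each of 8 libraries, PBS-PO replicate 6, PBS-IV replicate 3, PBS-IP replicate 3, Vancomycin-PO replicate 4, Vancomycin-IP replicates 2 and 4 and Vancomycin-IV replicates 3 and 5 (up to 0.0614). Over libraries of the same group Cry1 correlated with the smooth muscle score at r = 0.31 and with the goblet cell score at r = -0.36. The muscle score averaged 10.7 after ampicillin and 11.3 after vancomycin against 10.1 in PBS, the goblet score 8.76 and 8.78 against 10.07, and their part in the Cry1 difference was not tested beyond the covariates above, which leave the goblet score out. Cry1 differed from PBS by -0.26 after metronidazole, 0.25 after neomycin and 0.82 after the mix, none called.

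Cry2, the other cryptochrome and the steadiest of the 6 genes, was higher after the mix. The lowest, median and highest library read 32.1, 56.9 and 61.6 TPM in Mix-PO, 26.0, 37.8 and 42.5 TPM in Mix-IP and 27.1, 40.9 and 50.2 TPM in Mix-IV. PBS-PO read 21.5, 28.2 and 36.6 TPM by the same measures, the PBS-IP libraries 19.1, 21.9, 20.5 and 23.3 TPM and the PBS-IV libraries 36.2, 26.4, 32.2, 33.7 and 20.8 TPM. Of the 18 mix libraries 12 lay above all 15 PBS libraries. The difference was 0.65 (SE 0.13, limma adjusted p = 0.000446) with routes averaged, and 0.86 (SE 0.21, adjusted p = 0.0367) in Mix-PO, where 0.211% of genes were called higher. The Mix-PO call was lost without PBS-PO replicates 3, 4, 5 or 6 or Mix-PO replicates 1, 2, 3, 4 or 6 (adjusted p up to 0.152), and with quantile normalization (0.0957). In Ampicillin-IP and Mix-IP every library lay above every PBS-IP library, as 2.39% and 1.33% of genes did, with neither called (adjusted p = 0.202 and 0.126). The route-averaged call held without each library in turn. The difference was 0.55 (adjusted p = 0.000879) with the covariates and 0.63 (adjusted p = 0.00506) without the appended libraries. Cry2 correlated within groups with the goblet score at r = -0.49 and with the distal score at r = -0.36, both of which were lower after the mix as given for Per1, and the part of the goblet score was not tested. After single antibiotics Cry2 differed from PBS by -0.01 to 0.32, none called. Cry2 shares exon sequence with a transcript on the opposite strand in GENCODE, D930015M05Rik, and since strand is not stated for these values, reads from that transcript may be part of the Cry2 level.

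Ciart had the largest differences of the 6 genes. In PBS-PO the lowest, median and highest library read 11.1, 24.0 and 39.4 TPM, the PBS-IP libraries 32.8, 21.9, 13.8 and 18.6 TPM, and the PBS-IV libraries 28.7, 14.8, 32.8, 20.6 and 23.6 TPM. After ampicillin the lowest, median and highest were 2.06, 3.19 and 8.50 TPM PO, 2.71, 3.77 and 6.23 TPM IP, and 1.95, 3.36 and 10.3 TPM IV. All 18 ampicillin libraries lay below all 15 PBS libraries, which was so for 0.0117% of tested genes, namely Ciart and Dbp. The differences were -2.27 (SE 0.38, limma adjusted p = 0.000532) PO, -2.14 (SE 0.43, adjusted p = 0.00302) IP and -2.21 (SE 0.40, adjusted p = 0.0016) IV. None of the 3 calls was lost when a library was left out, but the IV call was lost without the appended libraries (-2.05, adjusted p = 0.108).

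After vancomycin Ciart read 1.67, 2.68 and 3.42 TPM as lowest, median and highest PO, and 1.88, 5.04, 1.996 and 1.39 TPM in the 4 Vancomycin-IP libraries. The Vancomycin-IV libraries were less even, at 1.62, 8.07, 8.45, 2.74 and 12.8 TPM. By each route all vancomycin libraries lay below every PBS library of that route. So did 0.293% of tested genes PO, 7.72% IP and 0.369% IV. The differences were -2.66 (SE 0.38, limma adjusted p = 1.22e-05) PO, -2.70 (SE 0.47, adjusted p = 0.000515) IP and -1.90 (SE 0.42, adjusted p = 0.035) IV. The IV call was lost without PBS-IV 3, PBS-IV 5 or Vancomycin-IV 4 (highest adjusted p 0.189), and without the appended libraries neither the IP nor the IV call held (-3.27 and -1.46, adjusted p = 0.248 and 0.566). Since 3 of 4 Vancomycin-IP libraries are appended ones, the comparison was also made within each set. Among the appended libraries Ciart in Vancomycin-IP differed from PBS-IP by -2.28 (3 against 2 libraries) and among the others by -3.27, and for IV these differences were -2.56 (2 against 2) and -1.46. For Per3 they were -1.27 and -1.86 IP and -1.57 and -0.97 IV. These differences within sets rest on 1 to 3 libraries an arm and were not tested. Route-averaged, Ciart stood at -2.21 (SE 0.23, limma adjusted p = 3.38e-11) after ampicillin and -2.42 (SE 0.24, adjusted p = 2.06e-11) after vancomycin. Without the appended libraries the values were -2.27 and -2.47 (adjusted p = 3.36e-08 and 2.72e-05) and with the covariates -2.20 and -2.38. The size depends on the pseudocount, since a larger one shrinks differences of low genes: with 10 in place of 1 they were -1.18 and -1.24, and -0.79 and -0.76 for metronidazole and neomycin, all called.

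Ciart was also lower after metronidazole and neomycin, by less. The 4 Metronidazole-IP libraries read 9.44, 16.4, 10.4 and 2.65 TPM and the 4 Metronidazole-IV libraries 14.05, 9.23, 19.0 and 7.67 TPM, and Metronidazole-PO had a lowest, median and highest library of 2.66, 4.43 and 13.2 TPM. Neomycin-PO read 4.11, 13.3 and 24.6 TPM by the same measures, Neomycin-IP 4.13, 6.98 and 11.9 TPM, and the 5 Neomycin-IV libraries 7.62, 7.48, 16.3, 5.03 and 5.21 TPM. Of the 14 metronidazole libraries 10, and of the 17 neomycin libraries 11, lay below all PBS libraries, and all Neomycin-IP libraries lay below all PBS-IP libraries, as 0.193% of genes did. Route-averaged the differences were -1.35 (SE 0.25, limma adjusted p = 0.000982) and -1.27 (SE 0.24, adjusted p = 0.000141), and both held without each library in turn and under the 8 other settings. By single route Ciart missed the threshold for both drugs, narrowly in Metronidazole-PO (-1.91, limma adjusted p = 0.0517). That difference was called with array weights, the covariates, the replicate block, quantile normalization, a pseudocount of 10 or no filter (adjusted p = 0.0265, 0.0338, 0.0371, 0.0275, 0.0199 and 0.0312), and without PBS-PO replicates 5 or 6 or Metronidazole-PO replicate 3 (down to 0.00735). Neomycin-IV stood at -1.50 (adjusted p = 0.083) and was called with a pseudocount of 10 (0.0243), with the covariates (0.028) or without Neomycin-IV replicate 3 (0.0301), and Neomycin-IP was called with array weights (-1.43, adjusted p = 0.00298). After the mix Ciart read 6.59 to 32.4 TPM, and 3 of 18 libraries lay below all PBS libraries. The difference was -0.23 (95% interval -0.69 to 0.23, limma adjusted p = 0.622) and was not called.

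The 5 antibiotic treatments were then compared with each other, with no PBS library in the test. An F test of equal route-averaged level called 6 of 6 members, where 30.0% of all tested genes were called. The limma adjusted p was 1.61e-12 for Ciart, 1.50e-08 for Per3, 2.28e-05 for Per1, 0.000101 for Cry2, 0.0072 for Per2 and 0.00928 for Cry1. Between ampicillin and vancomycin 0 of 6 members were called by limma (2.30% of all genes; 1 member, Per1, had an unadjusted p under 0.05), with a Ciart difference of 0.21 (95% interval -0.25 to 0.68) and a Per3 difference of -0.05 (-0.40 to 0.29). In both genes ampicillin, in comparisons where 7.02% and 4.40% of genes were called, lay below metronidazole and neomycin, by differences of -0.86 (limma adjusted p = 0.0159) and -0.94 (0.0044) for Ciart and -0.83 (0.00148) and -0.81 (0.000539) for Per3. Vancomycin lay below metronidazole and neomycin too (7.64% and 29.3% of genes called), seen as a metronidazole minus vancomycin difference of 1.07 (limma adjusted p = 0.00431) for Ciart and 0.78 (0.00498) for Per3, and as neomycin minus vancomycin differences of 1.15 (0.000566) and 0.76 (0.00249). Metronidazole and neomycin differed from each other by -0.08 (95% interval -0.56 to 0.40) for Ciart and 0.02 (-0.33 to 0.38) for Per3, and 0 of 6 members were called by limma (3.50% of genes), with 0 at an unadjusted p under 0.05.

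The mix holds the 4 drugs that were also given singly. Against the mean of the 4 single antibiotics given by the same route, Mix-PO had 4 of 6 members higher (1.46% of genes were). These were Ciart by 1.66 (SE 0.30, limma adjusted p = 0.0025), Per1 by 1.18 (SE 0.22, 0.00264), Cry2 by 0.86 (SE 0.16, 0.00264) and Per3 by 0.85 (SE 0.22, 0.0356). Mix-IP had 2 of 6 higher (0.474% of genes), Ciart by 1.81 (SE 0.31, 0.000329) and Per3 by 0.80 (SE 0.23, 0.039). In Mix-IV, where 0.00585% of genes were called, 0 of 6 members were called by limma, with Ciart at 1.29 (adjusted p = 0.483) and Per3 at 0.57 (adjusted p = 0.998). There 5 of 6 members, all but Cry1, had an unadjusted p under 0.05, and 2.41% of all tested genes did. Ciart levels were 20.9 TPM in Mix-PO against a mean of 6.55 TPM over the 4 single oral drugs, 21.0 against 5.91 TPM IP, and 19.3 against 8.14 TPM IV. The Per3 calls ended without any of 7 libraries PO (Ampicillin-PO replicate 3, Metronidazole-PO replicate 5, Vancomycin-PO replicate 3 and Mix-PO replicates 1 to 4, adjusted p up to 0.177). They ended without any of 10 libraries IP (Ampicillin-IP replicate 4, Metronidazole-IP replicates 3 and 4, Neomycin-IP replicate 5, Vancomycin-IP replicates 1 and 4 and Mix-IP replicates 2 to 5, up to 0.206). Both also ended with the covariates (adjusted p = 0.119 and 0.161) and with the compared groups alone (0.131 and 0.0581), the PO call with quantile normalization (0.0574), and the IP call with a pseudocount of 10 (0.0525) or without the appended libraries (0.0598). Against ampicillin alone with routes averaged, the mix had higher Ciart, Per3, Per2 and Per1, as ampicillin minus mix differences of -1.98, -1.16, -1.55 and -1.004 (limma adjusted p = 1.95e-10, 2.44e-07, 0.00989 and 1.20e-05), 4 of 6 members where 0.820% of genes differed. This was not particular to ampicillin. By limma 4 of 6 members were also higher in the mix than after metronidazole, 3 than after neomycin and 5 than after vancomycin. Shares of all genes called were not kept for these 3 comparisons. At an unadjusted limma p under 0.05 stood 5 of 6 members in each, and 25.4%, 12.9% and 38.3% of all tested genes.

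The effect of route was tested last. The limma F test of equal effect over PO, IP and IV called 0 of 30 member and antibiotic pairs, with 1 of them at an unadjusted p under 0.05 (Per1 with vancomycin, adjusted p = 0.632). Of all tested genes it called 0.0878% for neomycin and 0% for the other 4 treatments. Vancomycin differed from PBS in Per1 by -0.38 PO, 0.82 IP and -0.32 IV. In the same limma fit, among PBS groups 0 of 6 members differed between routes (0% of genes), with 1 at an unadjusted p under 0.05, Per1 at 36.4 TPM PO, 33.8 TPM IP and 60.7 TPM IV (adjusted p = 0.931). With group sizes of 4 to 6 the intervals are wide, so this does not show that routes act alike.

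A list of 29 other clock genes was read beside the repressors, all of them tested. With routes averaged, 5 were higher and 6 lower after ampicillin, 11 and 6 after vancomycin, 4 and 2 after neomycin, 1 and 0 after metronidazole and 6 and 0 after the mix. Over all tested genes the shares higher and lower were 5.13% and 2.75%, 18.6% and 7.40%, 2.08% and 0.258%, 0.351% and 0.0468%, and 4.69% and 3.27% in the same order. Among the 4 activator genes, the partners that the repressors act on, 3 were higher after ampicillin and 3 after vancomycin, 2 after neomycin, 1 after the mix and 0 after metronidazole, and 0 were lower in any. Arntl stood at 32.9 TPM after ampicillin against 10.2 TPM in PBS (1.69, SE 0.26, limma adjusted p = 3.87e-06), at 1.15 after vancomycin and 1.04 after neomycin, and Npas2 at 1.44 after ampicillin, 1.08 after neomycin, 1.00 after the mix and 0.74 after vancomycin. Among the 5 genes of the nuclear receptor loop, which acts on Arntl, Nr1d2 was lower after ampicillin (-0.94), vancomycin (-0.71) and neomycin (-0.58). Nr1d1, which encodes REV-ERB alpha, was lower after ampicillin (-0.41) and vancomycin (-0.55), and Rora was higher after vancomycin (0.73). Among the 6 output and accessory factors, Dbp, an activator at D-boxes, was lower after ampicillin (42.4 against 234.2 TPM, -2.69, SE 0.27, limma adjusted p = 1.01e-11), vancomycin (-2.15) and neomycin (-1.23). Nfil3, the repressor at the same sites, was higher after each of the 5 treatments, from 0.70 after neomycin to 1.70 after vancomycin. Usp2, a deubiquitinase under clock control, was lower after ampicillin (-1.40) and vancomycin (-1.48). Of the 14 kinases, ligases and partners that modify PER and CRY proteins, 1 was higher and 1 lower after ampicillin, 6 and 1 after vancomycin and 4 and 0 after the mix, among the 4 the ubiquitin ligase genes Fbxl21 (0.40, at 1.18 against 0.627 TPM) and Fbxw11 (0.38). The median difference of the 29 genes was 0.09 after ampicillin and 0.17 after vancomycin, beside 0.07 and 0.05 over all tested genes. All values of these genes are from the main fit, without the muscle and distal scores as covariates and with the appended libraries. By single route, calls on this list depended strongly on the setting, with 27 in the main fit and 9 to 85 under the others.

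**Figure D4:**
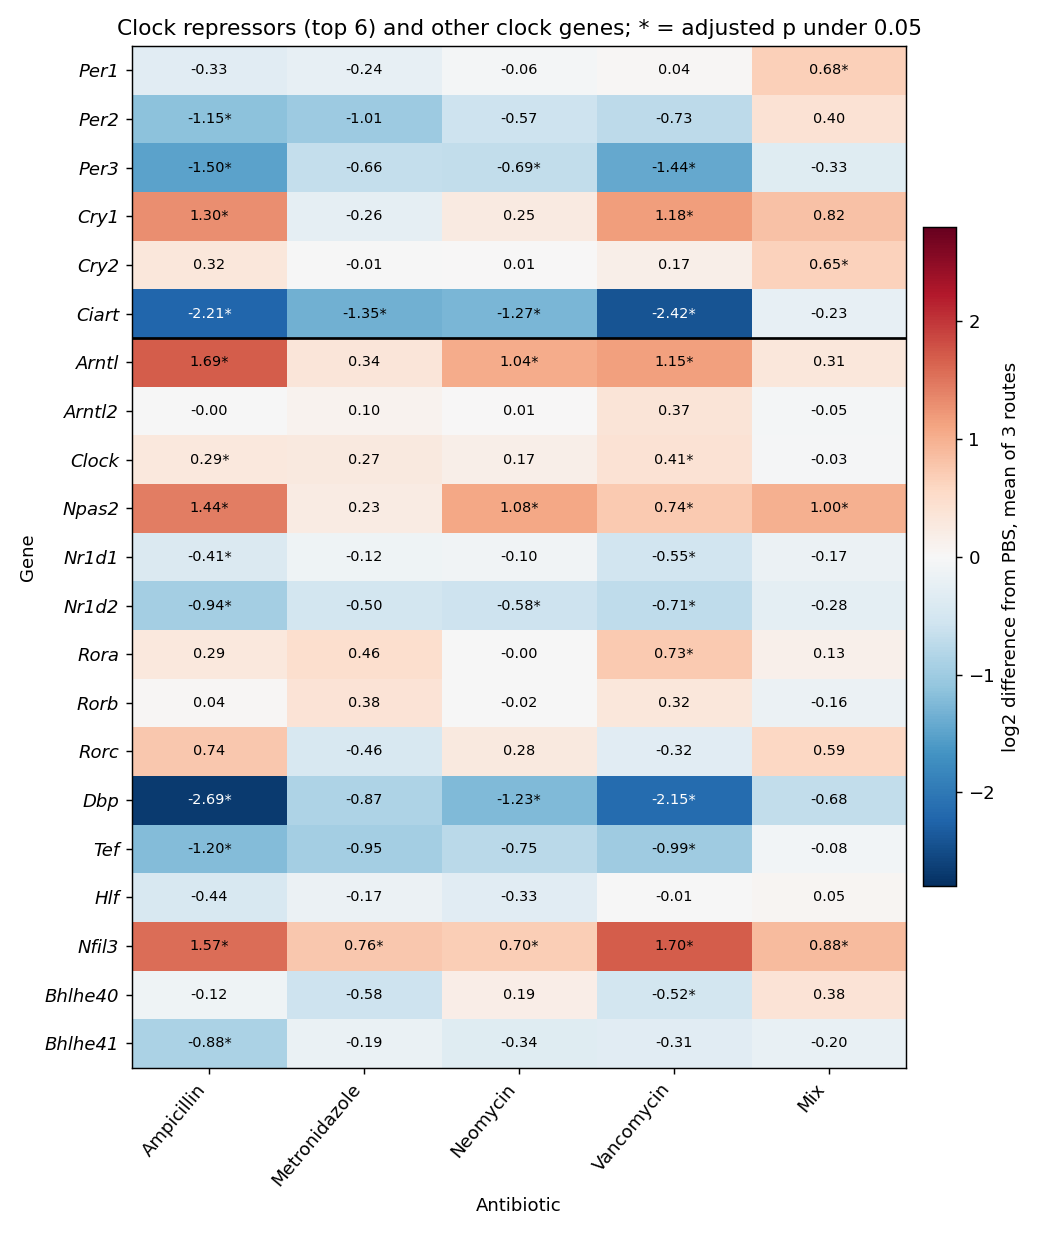
Route-averaged difference from PBS in log2(TPM + 1) for the 6 repressors, above the line, and 15 other clock genes, below it, in 5 treatments. Asterisks mark a limma adjusted p under 0.05. Arntl is higher and Dbp lower after ampicillin, vancomycin and neomycin, the treatments in which Ciart and Per3 are both lower.

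Within groups some of the repressors also varied together, which the comparison with PBS does not use. After each group's mean was removed from log2(TPM + 1), 7 of the 15 gene pairs were correlated over the 97 libraries at an adjusted p under 0.05. The share of all gene pairs that would pass was not computed. Genes outside the clock list reached similar values, such as Fam76a and Tom1l2 with Cry2 (r = 0.70 for both). The correlation is therefore not shown to be particular to the repressors. Per3 and Ciart had r = 0.70 (rho = 0.68), Per1 and Cry2 r = 0.68 (rho = 0.69), Cry2 and Ciart r = 0.60 (rho = 0.60) and Per1 and Ciart r = 0.54 (rho = 0.59), each with p = 1e-05, the smallest that 100000 permutations within groups can give, and an adjusted p = 3.75e-05. Per3 and Cry2 (r = 0.46, rho = 0.45), and Per1 and Per3 (r = 0.42, rho = 0.42), were correlated as well, with permutation p = 9e-05 and 0.00039 for r. Without the 2 libraries farthest from the median of the first gene the 6 values were 0.67, 0.65, 0.57, 0.55, 0.46 and 0.38 in that order. Per2 and Cry2 (r = 0.29, permutation adjusted p = 0.0218) had r = 0.19 without 2 libraries and rho = 0.24 (adjusted p = 0.0601). For Cry1 no pair with the other 5 passed the threshold (r from -0.03 to 0.25). Its pairs with Per2 and Cry2 missed it narrowly (r = 0.25 for both, permutation adjusted p = 0.0541 for both). Libraries of one group may have shared handling, which is not stated, and their marker scores differed. With the muscle and distal scores removed the Per3 and Ciart value was 0.72 and the Per1 and Cry2 value 0.62. The goblet score, with which Per1 and Cry2 correlated at r = -0.43 and -0.49, was not removed.

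The genes whose within-group pattern was most like each repressor were ranked by the same r among 12554 genes with a mean of at least 5 TPM. For Ciart the 5 highest were Dbp (0.70), Usp2 (0.68), Hoxd9 (0.62), Slc35e3 (0.61) and Tef (0.60), and the 3 lowest Snrpd1 (-0.54), Lox (-0.53) and Cks1b (-0.53). For Per3 they were Nr1d2 (0.68), which encodes the nuclear receptor REV-ERB beta, Uvssa (0.67), Akap8l (0.67), Dbp (0.66) and Guf1 (0.66), with Arl1, Hspa5 and Cdc42 lowest (-0.51, -0.50 and -0.50). Per1 and Cry2 shared Tom1l2 (0.66 and 0.70) and Fbxo31 (0.68 and 0.70) among their 5 highest. The others of Per1 were Ppp6r2, Dnajb2 and Smarcc2 (0.65, 0.65 and 0.64), and those of Cry2 Fam76a, Spns1 and Atn1 (0.70, 0.69 and 0.69). Their lowest were Gsdmc4, Gm10177 and Gstm2 for Per1 (-0.52, -0.52 and -0.51) and Snrpf, Lsm5 and Gm13092 for Cry2 (-0.68, -0.66 and -0.66). Per2 had Gm48348 (0.55), the casein kinase gene Csnk1d (0.54), whose product phosphorylates PER proteins, Ahcyl1 (0.51), Ubap1 (0.49) and Syne2 (0.49), against Dgcr6, Rp9 and Gpx4 (-0.50, -0.43 and -0.41). Cry1 had Zfand5, Zfp280c, Taok1, Gabpa and Odr4 (0.55, 0.54, 0.52, 0.51 and 0.51), none of them on the clock list, against Ppp1r11, Pfdn6 and Bscl2 (-0.51, -0.51 and -0.50). Against the activator Arntl the within-group r was -0.53 for Ciart, -0.46 for Per1, -0.43 for Per3 and -0.41 for Cry2, and 0.10 for Per2 and 0.10 for Cry1. These r values are descriptions over the same 97 libraries and carry no test.

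**Figure D5:**
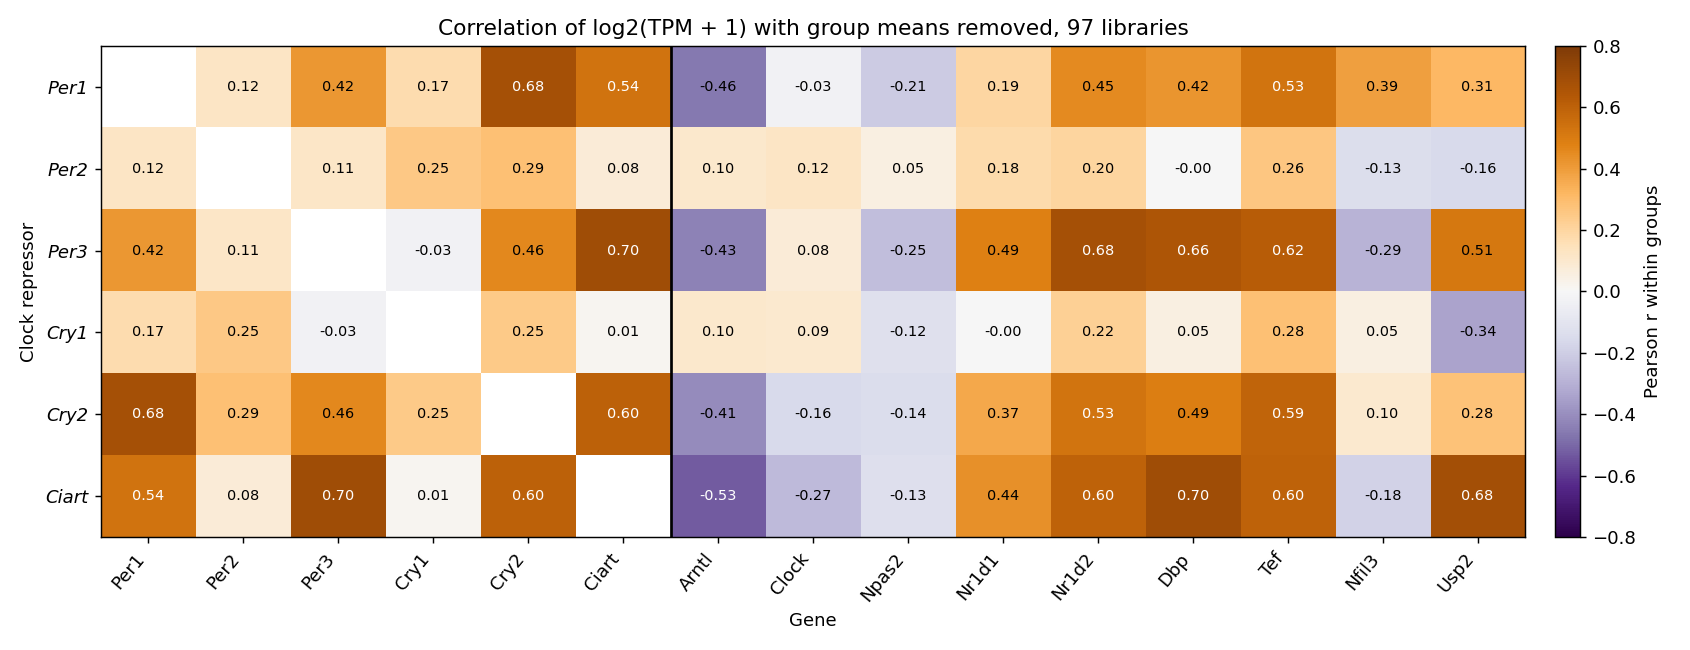
Pearson r of log2(TPM + 1) over 97 libraries after removal of group means, for the 6 repressors (rows) against each other and against 9 other clock genes (columns). Orange is positive and purple negative. Per1, Per3, Cry2 and Ciart are positively correlated with each other (0.42 to 0.70), and Cry1 and Per2 only weakly with them.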

How the data were processed

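The authors deposited one table of TPM values for 97 libraries. The tools named, per the submitters' processing notes, are Salmon, cutadapt 3.5 and Trim Galore 0.6.2, with build GRCm39. Per the labels' protocols, libraries came from 1000 ng of poly(A)-selected RNA, read single-end for 75 cycles. TPM keeps no depth, so no counting error can be given. All columns were matched to samples (0 left over). TPM was used as log2(TPM + 1), which understates changes of low genes. Genes with a TPM of 1 or more in at least 4 libraries were tested (17083 of 20457). One limma 3.58.1 fit (R 4.3.3, trend, robust) with a mean per group gave all contrasts and F tests, which share 1 estimate of the spread. P-values were adjusted by Benjamini-Hochberg over all tested genes within a comparison. A call is an adjusted p under 0.05. The fit was also run on simulated data with independent normal noise, and no result given here rests on that run. The members and lists were chosen with earlier results of these data known. Named were all 6 members, up to 4 called clock genes per comparison by size of change (Fbxl21 and Fbxw11 among them), and, for each member, the 5 highest and 3 lowest within-group correlations. Usp2 after ampicillin, Npas2 after vancomycin, Nr1d1, Nr1d2 and Rora were named after their values were seen. Alternatives were other pseudocounts, no filter, quantile normalization, array weights, a replicate block, score covariates, the compared groups alone, and leaving out the appended libraries or each library in turn.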

Additional observations from a re-analysis of the deposited data

Results flagged for a closer look

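Within groups of 4 to 6 libraries, 4 of 108 gene and group sets had 1 library set far apart from the rest, where chance alone gives about 1 in 20 (5%). Per1 read 74.2 TPM in Neomycin-IP replicate 5, with the other 5 libraries at 22.5 to 30.7 TPM. Per1 read 66.7 TPM in Vancomycin-IP replicate 2, with the others at 57.5 to 57.9 TPM. Per2 read 7.500 TPM in Metronidazole-IP replicate 4, with the others at 56.5 to 71.3 TPM. Per3 read 90.01 TPM in PBS-IP replicate 1, with the others at 60.7 to 64.1 TPM.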

How the results depend on the processing

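Of 144 member results, 12 lost and 1 gained a call without the 12 appended libraries, and 20 gained one with array weights. Under the pseudocounts of 10 and 0.1, no filter, quantile normalization, the replicate block and the covariates 1 to 7 changed. With the compared groups alone, 8 of 108 lost and 1 gained a call. No result called in the main fit turned direction, but some that were not called did. Without the appended libraries, route-averaged Cry1 after neomycin went from 0.25 to -0.04, and Cry2 after neomycin from 0.01 to -0.01. Route-averaged Per1 after vancomycin went from 0.04 to -0.13 with the covariates and to -0.03 without the appended libraries. The 12 calls over the 15 comparisons were 24 with array weights, 5 without the appended libraries and 7 with the compared groups alone, and 11 to 14 with 1 library left out. The 6 calls of the mix against single drugs were 11 with array weights, 4 with the covariates and 4 with the compared groups alone, and 5 to 6 with 1 library left out. The 27 calls of clock list genes over the 15 comparisons were 85 with array weights, 42 with the covariates and 9 without the appended libraries. They were 19 to 33 with 1 library left out. The main fit called 1.45% of all gene by comparison pairs, and this share was not computed under the other settings. The 12 route-averaged calls ranged from 9 to 15, and from 9 to 12 with 1 library left out. The 2 calls of all antibiotics, the 6 of the F test over antibiotics and the 0 of the route and PBS F tests stayed at those counts under every setting run. With the replicate number as a replicate block 13 of 90 members were called instead of 12, Ciart in Metronidazole-PO being the one gained (adjusted p = 0.0371), and 29 clock list genes. Whether the numbers pair the libraries was not settled. In 0 of 15 comparisons did every same-numbered pair deviate together at r over 0.1, and 30 of 74 pairs did. In Vancomycin-PO 5 of 6 pairs did, and in Ampicillin-IV 0 of 5. Asking it of every pair is a strict demand, so missing it does not exclude pairing. Quantile normalization moved the median of all genes by over 0.1 in Vancomycin-IP (0.11 to -0.06) and in Mix-IP against single drugs (-0.12 to 0.01). The cause of these changes was not tested. Depth is unknown, so its limit cannot be stated.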
